A study of Mus musculus with 71 samples.

Results

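The collagen chain genes encode the alpha chains that assemble into collagen trimers. They were taken as the GENCODE vM21 protein-coding genes whose symbol is Col, a type number, the letter a and a chain number. This gave 44 genes of the 21951 protein-coding genes. H3K27ac HiChIP, which joins chromatin conformation capture to immunoprecipitation of a histone mark of active promoters and enhancers, was performed on 2 SyS (synovial sarcoma) tumors. These were hSS2 tumors, in which human SS18::SSX2 is expressed from Rosa26 once Cre has removed a floxed stop cassette, and tumors of this model were initiated by TATCre protein injected into the hindlimb at day 8 of life. Tumors were dissociated whole, no normal tissue is among the HiChIP samples, and which cells took up the protein or how each tumor looked under the microscope is not given in the sources used here. The loops of both tumors were deposited as 1 merged list with no column that names a tumor, so no value below has a spread between tumors and no test between samples could be made. There were 24244 loops in it, resting on 41574 paired-end tags. Positions in the list run through the genome in order and then start again, which splits it into a first part of 28657 tags and a second part of 12917, and neither was assigned to a tumor.

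Collagens are the main structural proteins of the extracellular matrix. Each chain carries long repeats rich in glycine and proline, and 3 chains wind into a triple helix in the endoplasmic reticulum after hydroxylation of prolines and lysines. Fibrillar chains form the fibers of bone, skin, tendon and cartilage, network chains form sheets such as the basement membrane, and FACIT chains (fibril-associated collagens with interrupted triple helices) coat the fibers. In soft tissue tumors they are made by tumor cells and by stromal cells alike. A loop here is a pair of anchors joined by at least 1 tag at an FDR under 0.05 by the authors' caller. A promoter was called looped when an anchor lay within 2 kb of any TSS (transcription start site) of the gene, and its loop score was the sum of the tags of its loops. In bulk tumors fewer cells of a type and less signal per cell cannot be told apart.

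Loops were found at the promoters of 9 collagen genes. These were the basement membrane pair Col4a1 and Col4a2, the fibrillar genes Col2a1 and Col5a1, the FACIT genes Col9a2 and Col16a1, Col8a2, Col18a1 and Col25a1. The other 35 had none in the list. The looped share was 20.5% (Wilson 95% interval 11.2 to 34.5%), against 45.8% of all protein-coding promoters (45.1 to 46.4%). The intervals cover counting error only, and genes are not replicates. The 9 promoters held 27 loops with 31 tags. That was 0.0746% of all tags. The genes make up 0.200% of the protein-coding genes, but a tag can count for several genes, so these shares are not on the same basis. The mean loop score was 0.977 over the 44 collagen genes and 3.91 over protein-coding genes, and both medians were 0. Tags at a shared anchor count for each gene there, so the 12 tags of Col4a1 and Col4a2 enter the collagen mean for both genes. The upper quartile of the loop score was 0 among collagen genes and 3 among protein-coding genes. Among looped promoters alone the median score was 3 for collagens and 4 for protein-coding genes. The list keeps only loops that passed the caller, so a gene without a loop had no contact above that threshold, which is not the same as no H3K27ac.

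**Figure D1:**
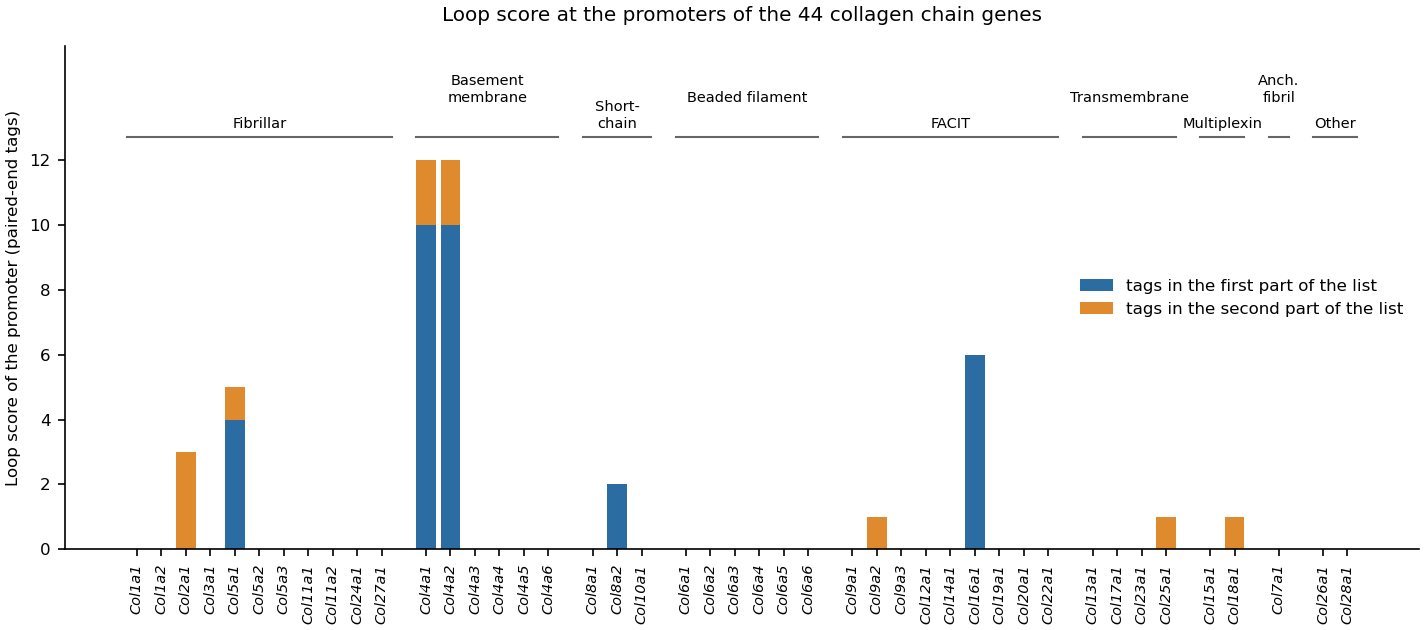
Loop score of each of the 44 collagen genes in paired-end tags, grouped by structural class and stacked by the part of the list the tags came from. Col4a1 and Col4a2 share an anchor and reach 12 tags, Col16a1 has 6, Col5a1 has 5, and 35 genes are at 0.

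The sequences at the looped promoters with the most tags are shown because the anchor that carried the strongest loops covers a divergent promoter, 1 start for each strand. They are RefSeq promoters on GRCm38.p6, the assembly that mm10 denotes, from 250 bases before to 50 after the start, written 5′ to 3′ along the strand of the gene. Capitals mark matches on either strand to 6 motifs, none of which contains another. These were the TATA box as TATAAA, the core of the CCAAT box, the GC box as GGGCGG, the AP-1 motif as TGACTCA, a motif of Sox factors as CATTGT and the E-box CACGTG. The Col4a1 window lies at chr8:11312777-11313076, minus strand, and the Col4a2 window at chr8:11312555-11312854, plus strand, and they share 78 bases. The Col16a1 window lies at chr4:130047590-130047889, plus strand. The Col5a1 window lies at chr2:27886175-27886474, plus strand. Each of these windows lies inside a loop anchor.
Col4a1: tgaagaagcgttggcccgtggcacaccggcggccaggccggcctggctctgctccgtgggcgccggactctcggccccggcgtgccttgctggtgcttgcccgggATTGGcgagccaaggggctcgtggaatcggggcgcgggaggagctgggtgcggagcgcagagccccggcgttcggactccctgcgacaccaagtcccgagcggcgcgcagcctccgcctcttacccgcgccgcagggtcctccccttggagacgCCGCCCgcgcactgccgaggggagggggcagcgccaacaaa
Col4a2: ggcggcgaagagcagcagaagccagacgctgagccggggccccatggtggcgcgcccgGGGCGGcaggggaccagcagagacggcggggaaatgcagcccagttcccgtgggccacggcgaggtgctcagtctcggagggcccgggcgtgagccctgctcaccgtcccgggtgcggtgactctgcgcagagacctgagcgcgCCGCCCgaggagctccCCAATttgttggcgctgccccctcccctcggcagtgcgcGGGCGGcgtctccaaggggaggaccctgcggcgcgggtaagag
Col16a1: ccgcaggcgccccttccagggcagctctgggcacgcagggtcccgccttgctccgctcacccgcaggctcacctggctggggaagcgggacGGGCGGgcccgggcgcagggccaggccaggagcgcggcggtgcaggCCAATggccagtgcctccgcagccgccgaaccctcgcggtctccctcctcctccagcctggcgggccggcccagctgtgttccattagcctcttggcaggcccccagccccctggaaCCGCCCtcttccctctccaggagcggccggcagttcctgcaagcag
Col5a1: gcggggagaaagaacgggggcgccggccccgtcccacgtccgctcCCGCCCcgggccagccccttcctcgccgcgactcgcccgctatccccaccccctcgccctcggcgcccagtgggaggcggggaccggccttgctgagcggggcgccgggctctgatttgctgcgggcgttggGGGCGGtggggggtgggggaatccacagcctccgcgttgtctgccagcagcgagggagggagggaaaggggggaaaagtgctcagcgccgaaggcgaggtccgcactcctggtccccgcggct

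Of the 44 genes, 35 had an entry in the promoter table, and Col1a1, Col2a1, Col4a3, Col5a2, Col9a3, Col12a1, Col14a1, Col22a1 and Col26a1 are named only. GGGCGG, the core of the GC box bound by Sp factors, was in 22 of the 35 collagen windows (62.9%) and in 35.7% of all 32851 promoters in the table. Of the 9 looped genes 8 had a window, and all 8 windows held this motif. The match of Col4a1 lies in the 78 bases shared with the Col4a2 window, so the same site counts for both. Motifs were not counted over looped protein-coding promoters, so whether this is particular to looped collagen genes is not known. The window of Col8a2 lay outside any loop anchor and the other 7 inside one. TATAAA was in 5 collagen windows (14.3%, against 13.6% of all promoters), those of Col3a1, Col10a1, Col11a2, Col13a1 and Col17a1, and in none of the 8 looped genes. CCAAT was in 12 (34.3%, against 37.4%), 5 of them at looped genes. The AP-1 motif was in the Col6a1 window alone (2.86%, against 5.20% of all promoters), the Sox motif in the Col28a1 window alone (2.86%, against 12.6%), and the E-box in none (against 7.15%). A match is a run of letters and not a measured site.

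Col4a1 and Col4a2 encode the chains of the most widespread type IV collagen, which is secreted as a mixed trimer into nearly all basement membranes. The genes lie head to head on chromosome 8, with Col4a1 at chr8:11198423-11312826 on the minus strand and Col4a2 at chr8:11312805-11449287 on the plus strand. Their 5′ ends are 21 bases apart, and the genes overlap over this stretch. A single anchor of 3.34 kb at chr8:11311491-11314831 covers both starts. All 8 loops and 12 tags therefore belong to both genes and cannot be divided between them. Of these tags 10 were in the first part of the list and 2 in the second. A score of 12 or more was reached by 19.6% of looped protein-coding promoters.

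Only 2 of the 27 collagen loops had more than 1 tag, and both started at the Col4a1 and Col4a2 anchor. The first held 3 tags over 243.5 kb (FDR 0.000659) and ended at the promoter of Ing1, a chromatin regulator that reads methylated histone H3. The second held 3 tags over 322.8 kb (FDR 0.000189) and ended at the promoter of Ankrd10. Both belonged to the first part. Loops of at least 2 tags were present at 2 of the 44 collagen promoters and at 21.2% of protein-coding promoters, and loops with an FDR under 0.01 at the same 2 collagen genes and at 17.5% of protein-coding promoters.

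The remaining 6 loops of the pair had 1 tag each. They ended at the promoter of Arhgef7, a guanine nucleotide exchange factor, 445.8 kb away, at an intergenic anchor at chr8:11912498-11914299, at the promoters of Cul4a and Pcid2 1792 kb away, and in 3 anchors of Sox1ot. Sox1ot is a long noncoding transcript at chr8:12385771-12436768 that contains the neural transcription factor gene Sox1 on the same strand. One of these anchors covered the Sox1ot start, 1072 kb from the collagen promoters. Another began 285 bases past the end of Sox1 (1090 kb, second part), and the last lay further along Sox1ot (1117 kb). The 3 loops had 3 tags in all, with FDRs from 0.0118 to 0.0262. All 8 loops of the pair ran to higher positions, the side on which Col4a2 lies. Within 2 Mb the list held 62 anchors on that side and 14 on the other.

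**Figure D2:**
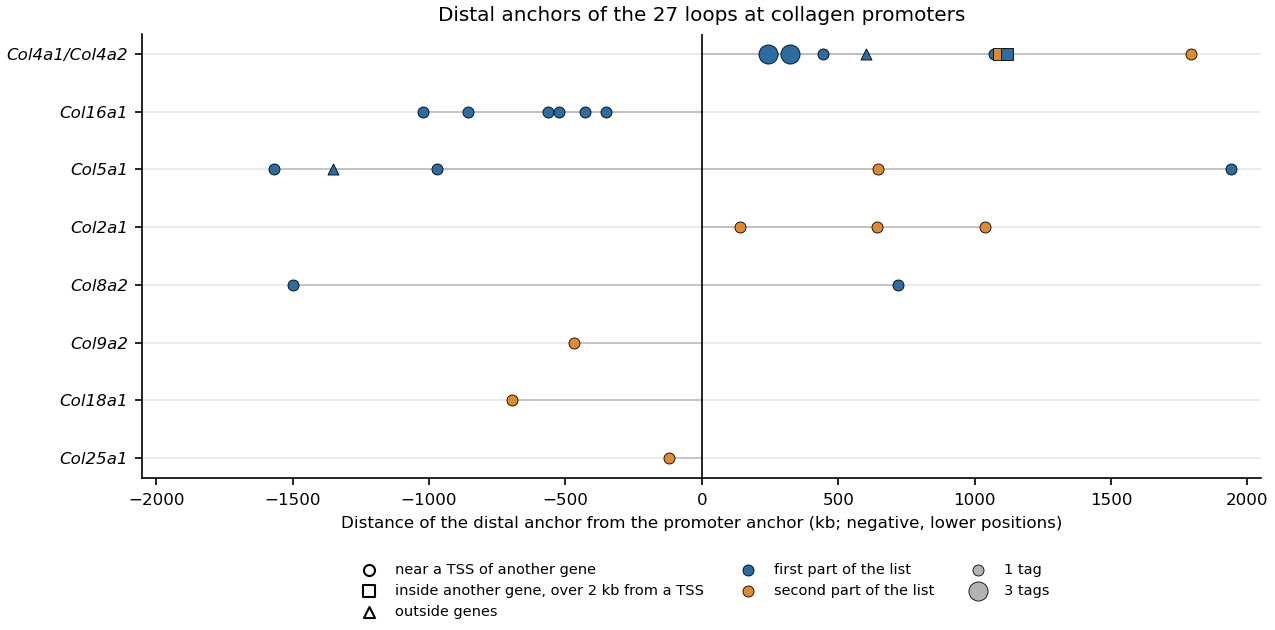
Distance in kb from the promoter anchor to the distal anchor for each of the 27 collagen loops, with marker size for tags, color for the part of the list and shape for what lies at the distal anchor. The pair of 3-tag loops of Col4a1 and Col4a2 lies at 243.5 and 322.8 kb, all loops of this pair run to higher positions, and all 6 of Col16a1 run to lower positions.

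The other basement membrane chains had no loop. Col4a3 and Col4a4, which form with Col4a5 the network of the kidney glomerulus, also lie head to head, with 5′ ends 72 bases apart. Their nearest anchor, at the Irs1 promoter, was 294.7 kb from Col4a3 and 294.6 kb from Col4a4. Col4a5 and Col4a6 lie head to head on the X chromosome, 1309 bases apart, and their nearest anchor, at the promoters of Atg4a and Psmd10, was 517.7 and 234.9 kb away. Distances here and below run from whichever TSS of the gene lies nearest to an anchor, which for Col4a6 is inside the gene. Of the 3 divergent type IV pairs, 1 was thus looped.

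Among the 11 fibrillar genes, Col5a1 and Col2a1 were looped. Col5a1 (chr2:27886425-28039514, plus strand) encodes a chain of type V collagen, which sets the diameter of type I fibers. It had 5 loops of 1 tag each, 4 in the first part and 1 in the second. The TSS of a noncoding transcript on the other strand, 2810430I11Rik, lies at the same anchor, so these loops belong to it as well. They ended at the promoters of Gpsm1, Surf1 and Surf2 (a divergent pair), Urm1 and Ralgds, and at an intergenic anchor 15.1 kb from the nearest TSS, that of Notch1. The spans ran from 647.2 kb to Ralgds to 1941 kb to Urm1, the longest collagen loop. The Ralgds loop, the only one of the second part, used a slightly shifted anchor at chr2:27885797-27887716 that overlaps the anchor of the first part.

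Col2a1 (chr15:97975602-98004695, minus strand), the main fibrillar collagen of cartilage, had 3 loops of 1 tag, all in the second part. The loop from its 5′ end, at chr15:98003593-98006270, reached the Asb8 promoter over 141.0 kb (FDR 0.0267). The other loops left from an anchor inside the gene, at chr15:97990088-97993561, that lies near the TSS of shorter transcripts. They ended at Cacnb3, a calcium channel subunit (643.3 kb), and at the tubulin gene Tuba1c (1039 kb). Where only the 5′ end of each gene was taken as its start, the Col2a1 score fell from 3 to 1. It was also 1 with the TSSs of protein-coding transcripts alone and with RefSeq starts.

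The fibrillar genes most abundant in connective tissue had no loop. Col1a1 and Col1a2 encode the chains of type I collagen, the main protein of bone, skin and tendon. The nearest anchor lay 33.2 kb from Col1a1, not near any TSS, and 1321 kb from Col1a2. Col3a1, partner of type I in skin and vessels, and Col5a2 are neighbors on chromosome 1, with 24.6 kb between the genes, and their nearest anchor, at Gulp1, was 757.7 and 839.8 kb away. Col11a1, a cartilage chain, had the farthest nearest anchor of all 44 genes, at 1722 kb. Col5a3, Col24a1 and Col27a1 were 62.0, 30.5 and 212.8 kb from an anchor. Col11a2 had an anchor 6.29 kb away that covers the promoters of Rxrb, Slc39a7 and H2-Ke6.

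Of the 9 FACIT genes, Col16a1 and Col9a2 were looped. Col16a1 (chr4:130047840-130099283, plus strand), which associates with fibrils in skin and cartilage, had 6 loops of 1 tag, all in the first part. Of these, 3 left from its 5′ end, where the antisense transcript Gm12963 also starts and shares them, and 3 from an internal TSS at chr4:130077222-130080804. All ran to lower positions and ended at promoters, from Tmem39b (351.3 kb) over Ccdc28b and Iqcc, the lymphocyte kinase Lck, Hdac1 and Marcksl1, and Yars and S100pbp to Rnf19b (1020 kb). Their FDRs lay between 0.0262 and 0.0492. The Col16a1 score fell from 6 to 3 with the TSSs of protein-coding transcripts alone, with RefSeq starts and with gene 5′ ends. Within 2 Mb of the 5′ anchor the list held 52 anchors on that side and 15 on the other.

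Col9a2 (chr4:121039385-121055322, plus strand), a chain of the type IX collagen of cartilage fibrils, had 1 loop of 1 tag in the second part, to the CTP synthase gene Ctps over 469.5 kb (FDR 0.0120). Its partner chains Col9a1 and Col9a3 were not looped. The anchor nearest to Col9a3 was 6.60 kb away, at Ogfr, and that nearest to Col9a1 was 254.6 kb away. The other FACIT genes without a loop were Col12a1, Col14a1, Col19a1, Col20a1 and Col22a1, at 73.3, 107.2, 89.98, 18.1 and 774.5 kb from an anchor.

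Each of the remaining classes, of 6 genes or fewer, had at most 1 looped gene. Over all 44 collagen genes 20.5% were looped, and differences between classes were not tested. Col8a2 (chr4:126286793-126314330, plus strand), a short-chain collagen of the corneal endothelium, had 2 loops of 1 tag in the first part. Both left from an internal TSS at chr4:126300189-126301675 and ended at Mtf1 with Inpp5b (1499 kb) and at the splicing factor gene Sfpq (720.8 kb). Its RefSeq promoter window lay outside the anchor. The other short-chain genes were Col8a1 and Col10a1, the collagen of hypertrophic cartilage, at 146.5 and 27.4 kb from an anchor.

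Col18a1 (chr10:77052178-77166548, minus strand), the multiplexin whose end fragment is endostatin, had 1 loop of 1 tag in the second part, over 697.3 kb to Mcm3ap and Ybey (FDR 0.0118). A further anchor inside the gene, away from any TSS, joined it to Pcbp3 and Fam207a by 1 tag each, also in the second part. The other multiplexin, Col15a1, was 47.3 kb from an anchor. Col25a1 (chr3:130131501-130599877, plus strand), a transmembrane collagen needed for the innervation of muscle, had 1 loop of 1 tag in the second part, to the COPII coat gene Sec24b over 120.3 kb (FDR 0.0383), the shortest collagen loop. It left from an internal TSS where the RefSeq promoter of Col25a1 lies.

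The transmembrane genes Col13a1, Col17a1 and Col23a1 had no loop, with the nearest anchors at 66.7, 37.8 and 7.88 kb. The anchor nearest to Col23a1 covers its 3′ end and the promoter of the next gene, Phykpl, and held 8 loops with 20 tags. The strongest of these had 13 tags over 22.05 kb (FDR 0.000548) and ran to Hnrnpab. None of the 6 beaded filament genes, which encode the chains of type VI collagen around muscle and other cells, was looped. Their nearest anchors were at 186.2 kb for Col6a1, 90.3 kb for Col6a2, 51.6 kb for Col6a3, 30.7 kb for Col6a4, 166.8 kb for Col6a5 and 165.6 kb for Col6a6. Col7a1, the anchoring fibril of skin, was 8.64 kb from an anchor at Pfkfb4. Col26a1 and Col28a1, in no class above, were 28.1 and 65.3 kb away.

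Tags and spans of the collagen loops were set beside those of all protein-coding promoters. Of the 27 loops, 25 had a single tag (92.6%, Wilson 95% interval 76.6 to 97.9%), and this interval includes the 77.8% of the loops at protein-coding promoters. The mean was 1.15 tags per loop, against 1.71 over all loops. The median span was 697.3 kb (quartiles 457.6 and 1081 kb), against 510.4 kb at protein-coding promoters. No collagen loop was shorter than 100 kb, while 5.08% of the loops at protein-coding promoters were. Span and tags are tied in this list, since no single-tag loop of any gene was shorter than 108.8 kb or had an FDR under 0.0118.

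Distal anchors were near promoters at a share close to that of all genes. Each of the 27 loops had its own distal anchor, and 23 of these lay near a TSS of another gene (85.2%, Wilson 95% interval 67.5 to 94.1%), against 79.0% of the distal anchors of protein-coding promoters. The TSS belonged to a protein-coding gene at 22 and to Sox1ot alone at 1. The 4 others were the 2 anchors within Sox1ot and the 2 intergenic anchors of Col4a1 with Col4a2 and of Col5a1. The partner genes were of mixed function, and no loop joined a collagen promoter to another collagen promoter. The distal anchors took part in a median of 4 loops each (1 to 17). The median was 2 over the distal anchors of protein-coding promoters. A small set of loops reaches anchors with many loops more often, so these medians cannot be compared directly. The Ing1 anchor was the busiest, with 17 loops and 70 tags in all.

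The collagen loops were also counted in each of the 2 parts of the list. Tags from both parts were present at 3 genes, Col4a1, Col4a2 and Col5a1 (33.3% of looped collagen genes, against 53.1% of looped protein-coding genes). Col4a1 and Col4a2 share the same loops, and a gene with a score of 1 cannot have tags in both parts. That score was found at 3 looped collagen genes and at 20.5% of looped protein-coding genes. Col8a2 and Col16a1 had tags in the first part alone, and Col2a1, Col9a2, Col18a1 and Col25a1 in the second alone. Of the 31 tags, 22 were in the first part (71.0%, against 68.9% of all tags). Most of these loops rested on 1 tag, and whether the loops of a gene differed between the parts was not tested.

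Collagen promoters without a loop lay about as far from an anchor as other promoters without one. The distance from a TSS to the nearest anchor had a median of 56.8 kb over the 44 genes and 7.23 kb over protein-coding genes. Among genes without a loop the medians were 89.98 kb for collagens and 91.8 kb for protein-coding genes. Of the 35 collagen genes, 4 had an anchor within 10 kb, for Col7a1 and Col23a1 from a TSS inside the gene. There was none within 100 kb for 16 (45.7%, against 48.0% of protein-coding genes without a loop), and none within 500 kb for 6. Loops between other anchors passed over 28 of the 35 collagen promoters (80.0%, against 66.5% of protein-coding promoters without a loop), with medians of 3 and 2 loops over a promoter. For this count the promoter was the gene 5′ end with 2 kb on either side. The most passed over Col11a2 (96 loops), Col9a3 and Col26a1 (44 each), Col20a1 (37) and Col7a1 (35).

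**Figure D3:**
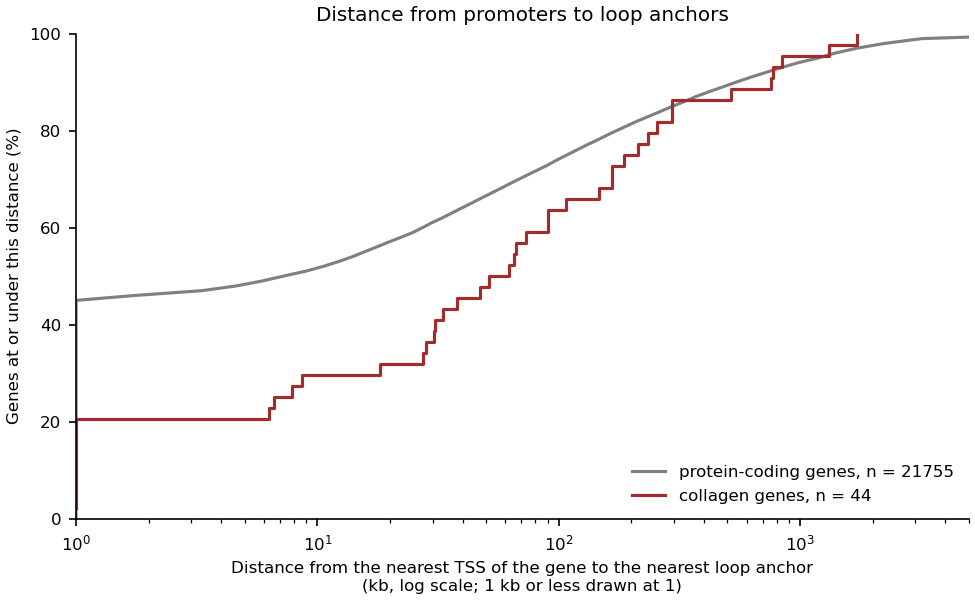
Cumulative share of genes by the distance from their nearest TSS to the nearest loop anchor, in kb on a log scale, for the 44 collagen genes and for the 21755 protein-coding genes on chromosomes with loops. The collagen curve starts lower, with 20.5% of genes at an anchor, and meets the other curve at larger distances.

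Promoter composition differed between looped and other collagen genes. The windows of looped collagen genes held a median of 28 CpG dinucleotides (10 to 37, n = 8), or 24 (10 to 37, n = 7) without Col8a2, whose window lay outside the anchor. Those of collagen genes without a loop held 9 (0 to 29, n = 27), and 14 of them were below the lowest value of a looped gene. Over all protein-coding genes in the promoter table the medians were 22 with a loop and 5 without. In the lowest CpG quartile of protein-coding genes, 0 to 4, 8.08% were looped and 0 of 7 collagen genes were. In the next, 5 to 14, the values were 38.9% and 1 of 15, the looped gene being Col9a2. In the third, 15 to 25, they were 71.1% and 3 of 8, Col16a1, Col18a1 and Col25a1. In the highest, 26 to 65, they were 76.3% and 4 of 5, with Col4a1, Col4a2, Col5a1 and, through its internal TSS, Col8a2 looped and Col13a1 not. The part of CpG content in the collagen looped share was not tested.

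**Figure D4:**
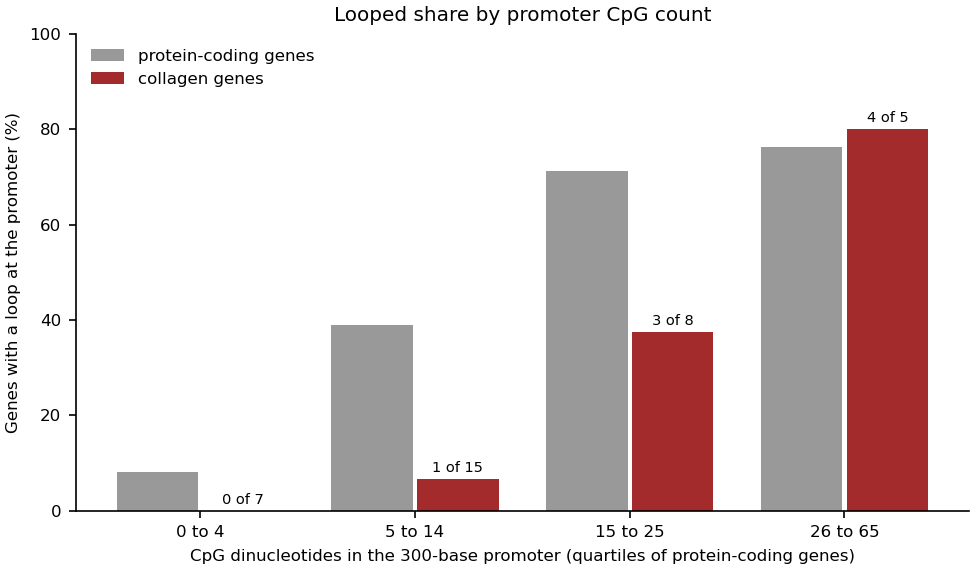
Share of genes with a loop at the promoter (%) by quartile of the CpG count in the 300-base promoter, for protein-coding genes (gray) and the 35 collagen genes in the promoter table (red, with counts). Looped collagen genes rise from 0 of 7 in the lowest quartile to 4 of 5 in the highest.

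Collagen genes were longer than protein-coding genes (median 114.4 against 17.4 kb) and had fewer neighbors within 500 kb (median 11.5 against 15). In the longest quartile of protein-coding genes 53.2% were looped, and of the 30 collagen genes in it 6 were. In the quartile with fewest neighbors 41.5% were looped, and of the 15 collagen genes there 1 was, Col5a1. In the next quartiles the protein-coding shares were 46.1%, 46.9% and 49.0%, and 5 of 14, 3 of 11 and 0 of 4 collagen genes were looped. Within the collagens the median number of neighbors was 11 with a loop and 12 without.

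Genes that act on collagen were looped at 23 of 52 promoters (44.2%, Wilson 95% interval 31.6 to 57.7%), near the 45.8% of all protein-coding promoters. Of 35 genes for modification, folding, processing and crosslinking, 16 were looped (45.7%, Wilson 95% interval 30.5 to 61.8%). The largest loop scores were those of Plod3, a lysyl hydroxylase and glycosyltransferase (43 tags), P4hb, the beta subunit of prolyl 4-hydroxylase (18), P4ha1, its catalytic subunit (10), and P3h1, a prolyl 3-hydroxylase (8). Next were Mia3, which exports procollagen from the endoplasmic reticulum, the cyclophilin gene Ppib, and P3h4 and Fkbp10, at 6 tags each. P3h4 and Fkbp10 are both on chromosome 11 and had equal loops and tags in each part. Whether they share the same loops was not tested. Serpinh1, the collagen chaperone HSP47, had 2 tags, and the crosslinking genes Lox, Loxl1, Loxl2, Loxl3 and Loxl4 had no loop. Among collagen receptors 5 of 9 were looped, led by the receptor tyrosine kinase gene Ddr1 (40 tags), with 4 tags each at Ddr2 and Itgb1. Among collagen-degrading enzymes 2 of 8 were looped, Mmp14 (12 tags) and Mmp9 (2). Mmp1a was listed with these and left out, since the annotation holds it as a polymorphic pseudogene and not as a protein-coding gene.

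**Figure D5:**
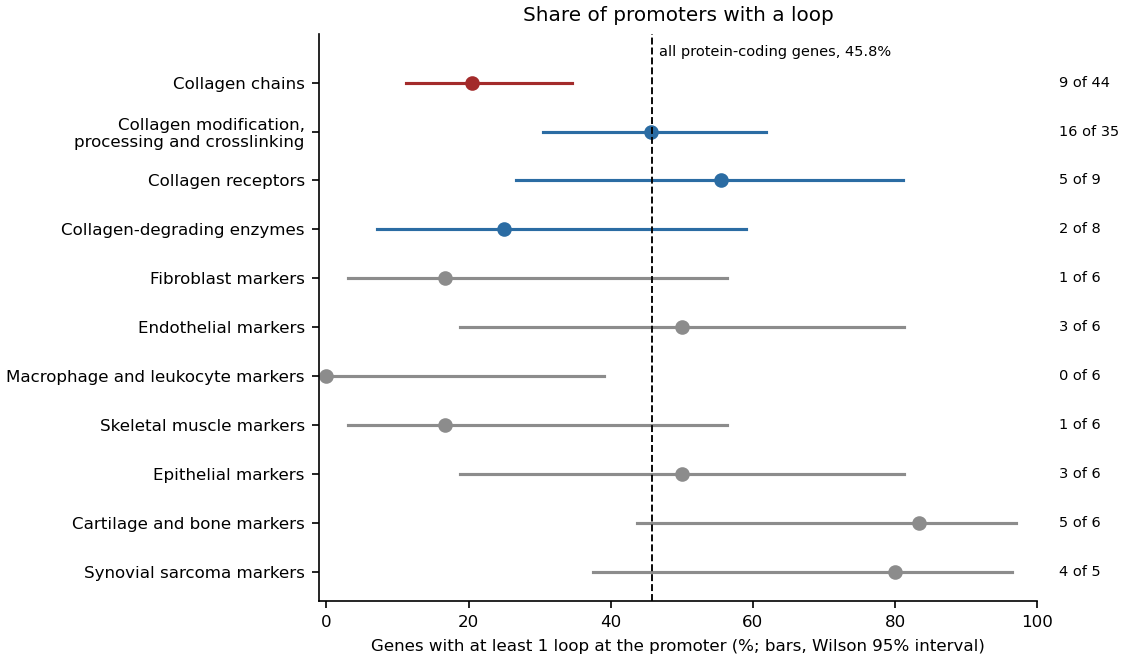
Share of genes with at least 1 loop at the promoter (%, bars Wilson 95% interval) for the collagen chains, for genes that act on collagen and for cell type markers, with the count beside each. The collagen chains are at 9 of 44, and the dashed line is the share of all protein-coding genes.

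The tumors held several cell types, and markers of these were read the same way, beside the 45.8% of all protein-coding promoters. Each list is short, and its interval is wide. Of 5 synovial sarcoma markers 4 were looped, with scores of 41 for Pdgfra, 39 for Sox2, 22 for Twist1 and 4 for Tle1, and Bcl2 had no loop. Of 6 fibroblast markers Pdgfra alone was looped, and Dcn, Lum, Dpt, Pi16 and Thy1 had no loop. Endothelial markers were looped in 3 of 6 (Cdh5, Tek and Erg, 5 tags in all), leukocyte markers in 0 of 6 (Ptprc, Csf1r, Adgre1, Cd68, Spi1 and Itgam), and skeletal muscle markers in 1 of 6 (Ckm, 2 tags). Epithelial markers were looped in 3 of 6 (Esrp1, Krt18 and Epcam, 5 tags in all). Of the cartilage and bone markers 5 of 6 were looped, Sox6 (17 tags), Sox5, Sox9, Runx2 and Sp7, and Acan was not. The part of the cell mixture in the collagen loops was not tested.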

How the data were processed

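H3K27ac HiChIP of 2 tumors was used, and the 69 ChIP-seq samples were not analysed here. The authors mapped read pairs to mm10 with HiC-Pro and called loops with Hichipper. The submitters' processing notes name mm10 and MACS2. The authors deposited 1 merged list with a count of tags per loop, not normalized, and an FDR, a p-value adjusted for multiple testing. How counts were merged is not given in the sources used here. For the FDR, a threshold of 0.05 stands in the methods, while a legend gives 0.01 with Mango. The FDRs of the list reach 0.0500, and 25 of the 27 collagen loops are above the stricter threshold.

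TSSs were those of all GENCODE vM21 transcripts, anchors were assigned within 2 kb, and span is the distance between anchor midpoints. The assignment was tested on simulated data. The depth was 41574 tags in all, mostly single tags, which limits the precision of any loop. Repeated loops (230 sharing both anchors with another) were kept. The members and lists were chosen with earlier results of these data known. Looped members were named, with full values for the 10 largest scores and for head-to-head pairs, then the 5 processing genes with the largest scores, ties included. One marker gene is not reported here. Alternatives changed the window, tags, FDR, list part, TSS set, span, repeats and score. Scripts ran in Python 3.11.15 with pandas 2.3.3, numpy 2.4.6 and scipy 1.17.1, and figures in matplotlib 3.10.9.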

Additional observations from a re-analysis of the deposited data

How the results depend on the processing

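The looped share of collagen genes was below that of protein-coding genes under every setting in which it was computed. Differences in percentage points ran from -27.4 with a window of 5 kb to -6.66 with FDRs under 0.001, and -25.3 as reported. The settings reuse the same list, so they are not independent, and these differences are given without an interval. Requiring at least 2 tags or an FDR under 0.01 or 0.001 left Col4a1 and Col4a2 (4.55%), which share an anchor. At least 4 tags left none (0%, a difference of -8.51). With the former 3 settings the median span was 283.2 kb over 2 loops and 100% of distal anchors lay near a TSS. That share was 57.9% with gene 5′ ends alone, which also removes most TSSs of the partners, and 94.1% with loops up to 1 Mb. All collagen loops in the second part alone had 1 tag (100%). The looped share of genes that act on collagen fell from 44.2% to 13.5% with at least 2 tags (protein-coding genes, 21.2%) or an FDR under 0.01 (17.5%). It was 7.69% with at least 4 tags (protein-coding genes, 8.51%) or an FDR under 0.001 (11.2%), and 30.8% in the first part alone (35.1%). That of collagen genes was 11.4% in the first part alone and 15.9% in the second, against 35.1% and 35.0% of protein-coding genes. Windows of 1 and 5 kb added or removed no collagen gene. With the TSSs of protein-coding transcripts alone, all 9 looped collagen genes stayed, with 22 loops against 27 as reported. Starts at gene 5′ ends removed Col8a2 and Col25a1. RefSeq starts, chosen after seeing the data, removed Col8a2 (18.2%, against 42.9% of protein-coding genes). Counting Col4a1 with Col4a2 as 1 promoter, also chosen then, gave 18.6%. The median loop score stayed at 0 and no loop joined collagen promoters under any setting. The scores of single genes stayed within 1.5 times in 61 of 117 recomputations and were lower in the other 56. A score could rise only with the wider window or RefSeq starts. The other settings take away loops or starts, or count loops in place of tags.

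No paired analysis was possible because the merged list has no column for a tumor, and for the same reason neither tumor could be left out. The number of tags is a limit, with 31 behind all collagen loops. The values come from 2 tumors with no control tissue.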
